A study of Mus musculus with 2 samples.

Results

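The genes described here are 10 members of the NF-κB system: the subunit genes Nfkb1, Rela, Rel, Nfkb2 and Relb, and the feedback and kinase genes Nfkbia, Nfkbiz, Nfkbid, Tnfaip3 and Ikbke. They were chosen by symbol from the 32285 genes of the matrix, with earlier results of these data known. All 10 were found and had UMIs (unique molecular identifiers, each standing for 1 captured mRNA molecule) in macrophages. Islets of Langerhans from 6 to 8 wild-type C57BL/6J males were pooled, and live CD45+ Epcam- immune cells were sorted. The cells were stained with oligonucleotide-tagged antibodies to the tetraspanin CD9 and to the mannose receptor CD206, and read as an mRNA library and an antibody (ADT) library of the same cells. This is 1 sample with no treatment, no second genotype and no replicate, and mice cannot be told apart within the pool. Cells are not replicates, so no test was made: every interval below covers counting error at 95% only, and no difference can be set against a spread between mice.

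NF-κB proteins are dimers of Rel-family subunits that IκB proteins hold in the cytoplasm. In the canonical arm, receptors for TNF, interleukin-1 and microbial ligands act through the IKK complex to have IκBα destroyed, which frees dimers of p50 (from Nfkb1) with RelA or c-Rel. In the noncanonical arm, the kinase NIK (Map3k14) leads to the processing of the Nfkb2 product to p52, which pairs with RelB. Several of the genes that NF-κB switches on are its own inhibitors, among them Nfkbia and Tnfaip3, so their mRNA is commonly read as a trace of recent activity. Islet macrophages are the main resident immune cells of the islet.

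Macrophages were taken as cells with at least 5000 RNA UMIs and at least 2000 CPM (UMIs per 1000000 UMIs of the cell) of C1qa, C1qb and C1qc together, which held for 1669 of the 2175 cells kept (76.7%). All 12 macrophage markers listed were at least 2-fold higher in them than in lymphocytes. C1qa, C1qb and C1qc are among these markers, so for them the rule itself fixed the outcome. Of the macrophages, 1643 lay in 9 macrophage-like clusters built without the NF-κB genes. There were 15 cells with 1500 to 2000 CPM of these C1q genes, just under the threshold, and 23 with 2000 to 2500 CPM, just over it. Against them stood 49 dendritic cell-like cells, 142 lymphocytes (29 B cell-like, 40 NK cell-like and 73 T cell-like), and 17 monocyte-like cells, a cluster led by S100a9 and S100a8 that also carried 4 of 6 neutrophil markers. The dendritic cell-like cells mixed conventional and migratory dendritic cell markers and formed 1 cluster at the Leiden resolution used. At a resolution of 1.5 the name went to a 19-cell cluster with 7 of 8 cDC1 markers, and a 33-cell cluster with 6 of 8 cDC2 markers and 0 cDC1 markers, led by Gsn, Mgl2 and Cd209a, stayed unnamed. Median depth was 20854 RNA UMIs in macrophages, 24257 in dendritic cell-like cells and 8918.5 in lymphocytes. A list of 18 immediate-early and heat-shock genes, a class that enzymatic tissue digestion can switch on, summed to 12495 CPM in macrophages, 4527 CPM in dendritic cell-like cells and 3471 CPM in lymphocytes, and their part in the differences between classes below was not tested. Macrophage genes such as C1qb and Adgre1 stood in lymphocytes at 0.875% to 3.05% of their macrophage level, the scale of free RNA carried over between droplets.

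NF-κB acts through κB sites in the control regions of its targets, several of the members among them, so the promoter stretches that hold such letters are shown first. RefSeq promoter windows (GRCm38.p6, from 250 bases before to 50 after each annotated start) were at hand for 7 of the 10 genes, not for Nfkb1, Relb and Nfkbiz. The κB motif GGGNNTTTCC, searched on both strands and matched in capitals below, occurred in the windows of 4 of these 7 genes and in 6 of their 12 windows, at 5 distinct sites, since 1 Nfkb2 site lies in overlapping windows of neighbouring starts. Of all 32841 windows in the table, 535 (1.63%) held it, and of the 27018 genes with a window 1.90% did. Each stretch is 60 bases, read 5′ to 3′ along the strand of its gene.
Nfkbia: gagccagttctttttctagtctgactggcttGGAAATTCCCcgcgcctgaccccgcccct
Tnfaip3: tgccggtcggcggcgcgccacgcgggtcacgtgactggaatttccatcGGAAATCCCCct
Rel: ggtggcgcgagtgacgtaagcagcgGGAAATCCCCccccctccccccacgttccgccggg
Nfkb2 at its upstream start: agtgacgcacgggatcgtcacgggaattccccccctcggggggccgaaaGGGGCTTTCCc
Nfkb2 at a downstream start: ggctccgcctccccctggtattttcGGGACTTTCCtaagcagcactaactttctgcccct

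The Nfkbia stretch lies at chr12:55492648-55492707 on the minus strand, immediately upstream of the gene (chr12:55489409-55492647), and its motif begins 29 bases before the annotated start. The Tnfaip3 stretch lies at chr10:19015411-19015470 on the minus strand with its motif beginning 12 bases before the start, and that of Rel at chr11:23771026-23771085 on the minus strand with its motif beginning 91 bases before the start. Those of Nfkb2 lie at chr19:46304677-46304736 and chr19:46305680-46305739 on the plus strand, with motifs that begin 11 and 225 bases upstream of their starts. The second of these motifs also lies in the window of a nearer start and begins 10 bases downstream of that start. No Nfkb2 window reaches the first base of the annotated gene (chr19:46300994-46312400), so upstream and downstream name only the order of the starts with a window. The motif faces the same way as the gene in Nfkb2 and the opposite way in Nfkbia, Tnfaip3 and Rel. Rela, Nfkbid and Ikbke had no match to this motif in these windows, which says only that these letters are not there. A second κB form, GGGRNYYYCC (R a purine, Y a pyrimidine), was matched in windows of 5 of the 7 genes, Nfkbid among them. It occurred in 5.81% of all windows, and Rela and Ikbke had no match to it either. The windows hold no measurement of binding, and a match is not evidence of use.

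The canonical subunits came in contrasting patterns by cell type. Levels of a class or group are UMIs summed over its cells on the CPM scale, with exact Poisson intervals in brackets. Nfkb1, which encodes p105 and p50, was at 1118 CPM (1108 to 1129) in macrophages, against 521 CPM (482 to 562) in dendritic cell-like cells, 526 CPM (473 to 583) in T cell-like cells, 1155 CPM (1049 to 1269) in NK cell-like cells, 505 CPM (430 to 590) in B cell-like cells and 687 CPM (589 to 797) in monocyte-like cells. Macrophages and NK cell-like cells were therefore high and close to each other, monocyte-like cells were intermediate, and dendritic, T and B cell-like cells lay near 500 CPM with overlapping intervals. Rel, which encodes the inducible subunit c-Rel, was at 573 CPM (565 to 581) in macrophages, against 1079 CPM (1023 to 1137) in dendritic cell-like cells, 136 CPM (110 to 167) in T cell-like cells, 350 CPM (293 to 415) in NK cell-like cells and 982 CPM (876 to 1098) in B cell-like cells. Dendritic cell-like and B cell-like cells were thus the high classes for Rel and T cell-like cells the lowest, a spread far wider than the counting intervals. Rela, which encodes the p65 subunit present in most cells, was flat by comparison: 63.7 CPM (61.2 to 66.4) in macrophages, 61.2 CPM (48.5 to 76.3) in dendritic cell-like cells, 64.4 CPM (46.8 to 86.5) in T cell-like cells, 82.1 CPM (55.8 to 117) in NK cell-like cells and 57.2 CPM (33.9 to 90.4) in B cell-like cells. All of these Rela intervals overlap, and the counts leave room for differences of the size of the intervals.

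The noncanonical pair was highest outside the macrophages. Relb, the partner of p52, was at 273 CPM (267 to 278) in macrophages, against 499 CPM (461 to 539) in dendritic cell-like cells, 187 CPM (156 to 223) in T cell-like cells, 313 CPM (259 to 374) in NK cell-like cells and 172 CPM (129 to 224) in B cell-like cells. Nfkb2, the precursor of p52, was at 113 CPM (109 to 116) in macrophages, against 153 CPM (133 to 176) in dendritic cell-like cells, 110 CPM (86.4 to 138) in T cell-like cells, 180 CPM (140 to 228) in NK cell-like cells and 69.9 CPM (43.8 to 106) in B cell-like cells. The Nfkb2 interval of macrophages lay below those of dendritic cell-like and NK cell-like cells, above that of B cell-like cells, and within that of T cell-like cells.

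The inhibitor genes did not share a pattern over the classes. Nfkbia, which encodes IκBα, was at 781 CPM (772 to 790) in macrophages, against 1456 CPM (1391 to 1523) in dendritic cell-like cells, 497 CPM (445 to 552) in T cell-like cells, 1375 CPM (1259 to 1499) in NK cell-like cells and 489 CPM (415 to 573) in B cell-like cells. Tnfaip3, which encodes the ubiquitin-editing enzyme A20, was at 243 CPM (238 to 248) in macrophages, against 167 CPM (146 to 191) in dendritic cell-like cells, 453 CPM (404 to 506) in T cell-like cells, 869 CPM (777 to 968) in NK cell-like cells and 66.7 CPM (41.3 to 102) in B cell-like cells. NK cell-like cells were therefore high for both inhibitors, whereas dendritic cell-like cells were high for Nfkbia and low for Tnfaip3. Nfkbiz, which encodes the nuclear protein IκBζ needed for some secondary response genes, was at 154 CPM (150 to 159) in macrophages, against 157 CPM (136 to 180) in dendritic cell-like cells, 70.3 CPM (51.8 to 93.2) in T cell-like cells, 230 CPM (185 to 284) in NK cell-like cells and 137 CPM (98.9 to 184) in B cell-like cells. Nfkbid, which encodes the nuclear protein IκBNS, was at 39.4 CPM (37.4 to 41.5) in macrophages, against 57.3 CPM (45.0 to 72.0) in dendritic cell-like cells, 49.8 CPM (34.5 to 69.6) in T cell-like cells, 84.8 CPM (58.0 to 120) in NK cell-like cells and 41.3 CPM (22.0 to 70.7) in B cell-like cells. Its intervals are wide because few UMIs were counted, and of these classes only dendritic cell-like and NK cell-like intervals lay clear of macrophages. For NK cell-like cells this leaned on 1 cell, which held 15 of the 32 UMIs (46.9%). With each cell thinned to 5000 UMIs, 22.6% of NK cell-like cells (9.59 to 41.1) and 14.7% of macrophages (13.1 to 16.5) held a UMI. The richest B cell-like cell held 53.8% of its class's UMIs and the richest T cell-like cell 41.2%, against 9.46% for dendritic cell-like cells. Poisson intervals do not cover such unevenness.

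Ikbke, which encodes the IKK-related kinase IKKε, had the fewest macrophage UMIs of the 10 genes. It was at 11.7 CPM (10.6 to 12.8) in macrophages, from 422 UMIs in 186 of 1669 cells (11.1%), against 7.75 CPM (3.72 to 14.3) in dendritic cell-like cells, 43.9 CPM (29.6 to 62.7) in T cell-like cells, 66.2 CPM (42.9 to 97.8) in NK cell-like cells and 118 CPM (79.9 to 169) in monocyte-like cells. In B cell-like cells it had 0 of 314629 UMIs, a limit of 9.54 CPM at 3 counts and of 11.7 CPM by the exact interval. For the share of cells with a UMI these limits are 10.3% (3 of 29 cells) and 11.9%. The exact interval of the ratio of macrophages over B cell-like cells begins at 0.991 and so includes no difference. Monocyte-like, NK cell-like and T cell-like cells led in that order, each interval overlapping the next, and macrophages came below them. With each cell thinned to 5000 UMIs, 3.83% of macrophages (64 of 1669), 15.9% of T cell-like cells (11 of 69), 19.4% of NK cell-like cells (6 of 31) and 2.13% of dendritic cell-like cells (1 of 47) held an Ikbke UMI. Thinning left out 4 T cell-like, 9 NK cell-like and 2 dendritic cell-like cells that were too shallow, and unthinned the shares were 24.7% in T cell-like cells, 27.5% in NK cell-like cells and 14.3% in dendritic cell-like cells. The monocyte-like cells were also high for Nfkbia, at 1749 CPM (1590 to 1920), and for Nfkbiz, at 344 CPM (275 to 424). The sort also let through 13 endothelial-like cells, which had 151 CPM (107 to 207) of Rela and 1688 CPM (1531 to 1856) of Nfkbia. They had 0 of 252397 UMIs of Ikbke, a limit of 11.9 CPM at 3 counts and of 14.6 CPM by the exact interval.

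**Figure D1:**
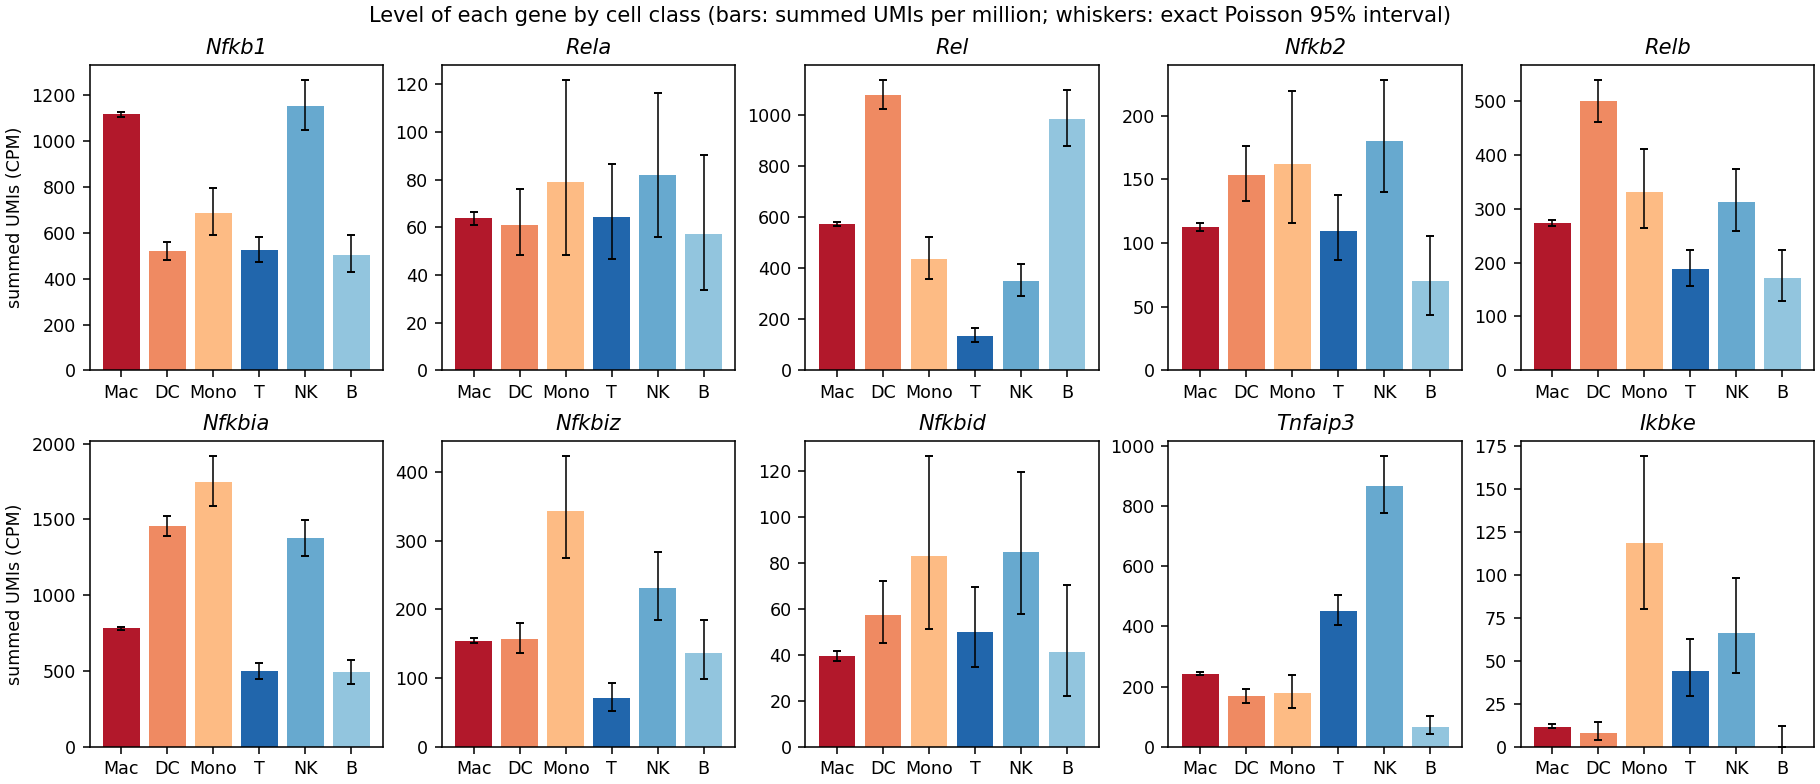
Level of each of the 10 genes in macrophages (Mac), dendritic cell-like (DC), monocyte-like (Mono), T cell-like (T), NK cell-like (NK) and B cell-like (B) cells, as summed and scaled UMIs (CPM, vertical axis, a scale of its own for each gene); whiskers are exact Poisson 95% intervals. Nfkb1 stood at 1118 CPM in macrophages and 1155 CPM in NK cell-like cells and lower elsewhere, Rel peaked at 1079 CPM in dendritic cell-like cells, and Ikbke peaked at 118 CPM in monocyte-like cells.

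Set against all lymphocytes, 1 of the 10 genes was at least 1.5-fold higher in macrophages and 2 were at least 1.5-fold lower, where 23.1% of the 10191 genes with at least 100 UMIs in the 2 sums were that much higher and 49.3% that much lower. The gene that was higher was Nfkb1 (1118 against 694 CPM, 1.61-fold, 1.51 to 1.72). As a mean over cells rather than of summed UMIs it was 1.37-fold, and in the macrophages lowest in immediate-early genes 1.34-fold. Those that were lower were Tnfaip3 (243 against 479 CPM, 0.507-fold, 0.468 to 0.550) and Ikbke (11.7 against 40.0 CPM, 0.292-fold, 0.220 to 0.394). In the macrophages lowest in immediate-early genes Tnfaip3 stood at 0.301-fold, Ikbke at 0.445-fold, and Nfkbid at 0.397-fold, past the size rule, against 0.686-fold over all macrophages. The median gene was itself lower in macrophages, by 0.57 on the log2 scale, and with that shift removed 5 of the 10 genes were at least 1.5-fold higher (Nfkb1, Rel, Relb, Nfkbia and Nfkbiz) and 1 was at least 1.5-fold lower (Ikbke), where 32.5% of all genes tested were then that much higher and 28.9% that much lower. Tnfaip3 then stood at 0.751-fold. The members' median was -0.000475 on the log2 scale, against -0.57 for all genes tested. The lymphocyte classes did not share a pattern: macrophages over T cell-like cells gave a Rel ratio of 4.21 (3.43 to 5.21), and macrophages over B cell-like cells one of 0.583 (0.521 to 0.655). For Tnfaip3 the ratio was 0.536 over T cell-like cells, 0.279 over NK cell-like cells and 3.63 over B cell-like cells.

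Among T cell-like cells, the 19 cells of a cluster led by Ctla4, Tnfrsf4 and Adamts6, with Foxp3, Il23r, Pdcd1 and Tox also among its first 10 genes, had 753 CPM (628 to 896) of Tnfaip3 and 759 CPM (633 to 903) of Nfkb1. The 54 cells of the other T cell-like cluster, led by Lef1, Themis and Cd3e, had 354 CPM (304 to 409) of Tnfaip3 and 449 CPM (393 to 511) of Nfkb1, so the intervals were apart for both genes. Nfkb2, Relb and Nfkbia had overlapping intervals in these clusters, at 107, 172 and 480 CPM in the cluster led by Ctla4 and 111, 193 and 502 CPM in the cluster led by Lef1.

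Set against dendritic cell-like cells, 2 of the 10 genes were at least 1.5-fold higher in macrophages and 3 at least 1.5-fold lower, against 24.1% and 27.3% of the 10003 genes tested, and the median gene was lower in macrophages by 0.14 on the log2 scale. Nfkb1 was higher (1118 against 521 CPM, 2.15-fold, 1.99 to 2.32), and Ikbke was just past the size rule with an interval that includes no difference (1.51-fold, 0.811 to 3.16). Without the cell richest in Ikbke its ratio was 1.46, and as a mean over cells 1.06. Rel (573 against 1079 CPM, 0.531-fold, 0.503 to 0.561), Relb (273 against 499 CPM, 0.546-fold, 0.504 to 0.593) and Nfkbia (781 against 1456 CPM, 0.536-fold, 0.512 to 0.562) were lower in macrophages. Tnfaip3, the other inhibitor of the canonical arm, had a ratio of 1.45 (1.27 to 1.67), and in the macrophages lowest in immediate-early genes 0.861. Against the 19-cell class of resolution 1.5, Nfkbid stood at 1.32-fold rather than 0.688-fold, Tnfaip3 at 1.17-fold and Ikbke at 2.07-fold. Within the dendritic cell-like cells, the 34 with a UMI of Ccr7, the chemokine receptor of migrating dendritic cells, had more Nfkbia (1733 against 900 CPM, 1.93-fold, 1.72 to 2.16), Relb (562 against 373 CPM, 1.51-fold, 1.26 to 1.81) and Nfkbiz (196 against 79.3 CPM, 2.47-fold, 1.70 to 3.69) than the 15 without one. Nfkbid was alike within a wide interval there (56.9 against 58.3 CPM, 0.976-fold, 0.591 to 1.65).

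The machinery around the members differed between these classes as well. Of 19 kinases and adaptors of the pathway, 3 were at least 1.5-fold higher and 10 at least 1.5-fold lower in macrophages than in dendritic cell-like cells, with a median ratio of 0.643 against 0.905 for all genes tested, of which 24.1% were that much higher and 27.3% that much lower. Map3k14, the kinase of the noncanonical arm, was at 84.9 against 473 CPM (0.180-fold, 0.165 to 0.196), Traf1, an adaptor of TNF receptors, at 192 against 859 CPM (0.223-fold), and Ikbkb, the catalytic subunit of the canonical IKK complex, at 58.4 against 172 CPM (0.339-fold). Of 10 receptors, 5 were higher and 1 lower: Tlr2, a receptor for bacterial lipoproteins, was at 374 against 33.3 CPM (11.2-fold), and Cd40, which signals to the noncanonical arm, at 223 against 389 CPM (0.573-fold). Of 11 ubiquitin regulators 1 was higher and 5 were lower, and Birc2 and Birc3, the ligases that restrain NIK, were at 27.8 against 102 CPM (0.274-fold) and 241 against 569 CPM (0.423-fold). Of 21 listed target genes, 14 were higher and 4 lower in macrophages. Cxcl2, a neutrophil-attracting chemokine, was at 3542 against 48.0 CPM (73.7-fold, against a level at the scale of free RNA), and Cd80, a costimulatory ligand, at 29.8 against 461 CPM (0.0646-fold). The other IκB genes Bcl3 (0.541-fold) and Nfkbie (0.661-fold) were also lower in macrophages.

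Over lymphocytes, 19 of the 21 target genes and 9 of the 10 receptors passed the size rule upward in macrophages, with median ratios of 27.4 and 9.23, against 23.1% of all genes tested upward and 49.3% downward. Il1b, the pro-inflammatory cytokine gene, was at 1868 against 18.9 CPM (98.8-fold), close to the scale of free RNA in lymphocytes. The kinases and adaptors were split, with 5 of 19 higher and 5 lower and a median ratio of 0.993. Of the 11 ubiquitin regulators 3 were higher and 6 lower, shares near those of all genes. Tnip3, a partner of A20, was at 618 against 9.46 CPM (65.4-fold), a lymphocyte level also at the scale of free RNA, and Cyld, a deubiquitinase that limits NF-κB signalling, at 65.3 against 232 CPM (0.281-fold). Nfkbib, which encodes IκBβ, was 3.74-fold higher (199 against 53.1 CPM).

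Within macrophages, the 10 genes varied in different ways from cell to cell. Per-cell Nfkb1 had a median of 1019 CPM with quartiles of 581 and 1505 CPM, and a UMI was seen in 98.5% of macrophages. Nfkbia had a median of 589 CPM with quartiles of 307 and 1049 CPM, and 1 macrophage in 10 exceeded 1666 CPM. Nfkbiz was more uneven, with a median of 77.9 CPM, a lower quartile of 0, an upper quartile of 209 CPM and a 90th percentile of 413 CPM. For Tnfaip3 the median was 162 CPM, the quartiles 54.7 and 326 CPM and the 90th percentile 563 CPM. Nfkbid was seen in 40.0% of macrophages and Rela in 70.8%, so their per-cell values at this depth are mostly counts of 0 to a few UMIs. No cell held more than 1.12% of the macrophage UMIs of any gene but Ikbke, for which the richest cell held 3.32% (14 UMIs).

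CD9 divided the macrophages widely, and a single NF-κB gene followed it beyond the size rule. The CD9 antibody carries the tag tagcagtcactccta, whose UMIs are the CD9 measurement. Cells were ranked by CD9 within deciles of RNA depth, and the upper 3 deciles (500 cells, median 3477.5 CD9 UMIs) were set against the lower 3 (500 cells, median 48 CD9 UMIs); median RNA depth was 20864.5 UMIs in CD9-upper and 20857 UMIs in CD9-lower macrophages. The transcript moved with the protein, as Cd9 was at 394 CPM in CD9-upper and 43.6 CPM in CD9-lower macrophages. Of the 10 genes, 1 was at least 1.5-fold higher in CD9-upper macrophages and 0 were at least 1.5-fold lower, against 6.63% and 3.09% of the 8834 genes tested. At those shares a count of 0 or 1 among 10 genes is close to the background, and the result below is about 1 gene and not about the group.

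That gene was Ikbke, at 21.0 CPM (18.4 to 23.8) in CD9-upper and 2.74 CPM (1.84 to 3.94) in CD9-lower macrophages, a 7.64-fold difference (5.18 to 11.7) resting on 237 and 29 UMIs. Over the CD9 deciles from low to high its level was 1.94, 1.19, 4.98, 6.38, 14.7, 12.3, 10.4, 22.9, 16.0 and 23.5 CPM. The first 2 deciles were the lowest, deciles 5 to 7 were intermediate and deciles 8 to 10 the highest, without a steady step from each to the next. The share of cells with an Ikbke UMI was 18.0% (14.7 to 21.7) in CD9-upper and 4.80% (3.10 to 7.06) in CD9-lower macrophages. The ratio was 8.57, 9.06 and 6.05 within the lowest, middle and highest tercile of CD206 antibody, from 55, 70 and 141 UMIs. Within the lowest, middle and highest tercile of immediate-early genes it was 5.31, 10.4 and 6.19, from 146, 101 and 19 UMIs. The ratios from under 100 UMIs fall below the minimum used for the counts of genes. CD9 ranked without regard to RNA depth gave 12.6, and CD9 per RNA UMI 13.6.

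The other 9 genes moved little with CD9, and most lay slightly below 1. Tnfaip3 was at 210 CPM in CD9-upper and 268 CPM in CD9-lower macrophages (0.782-fold, 0.740 to 0.826), Nfkbiz at 125 and 161 CPM (0.777-fold, 0.724 to 0.834), and Nfkbid at 33.9 and 44.2 CPM (0.769-fold, 0.670 to 0.882). The nuclear IκB genes and A20 thus shared the lowest ratios. Nfkb1 was at 0.867-fold (0.845 to 0.889), Relb at 0.884-fold (0.840 to 0.930), Rel at 0.891-fold (0.860 to 0.923), Rela at 0.965-fold (0.869 to 1.07) and Nfkb2 at 0.971-fold (0.897 to 1.05), and Nfkbia was the other gene above 1, at 1.07-fold (1.04 to 1.10). Within clusters, with the upper 5 CD9 deciles set against the lower 5, Nfkbia had ratios on both sides of 1: 1.16 (1.07 to 1.26) in cluster 3, but 0.859 (0.796 to 0.925) in cluster 1 and 0.904 (0.856 to 0.955) in cluster 5, with intervals that include 1 in clusters 0, 2 and 4. The members' median ratio was 0.888, against 1.06 for all genes tested. Immediate-early and heat-shock genes summed to 10369 CPM in CD9-upper and 13124 CPM in CD9-lower macrophages, and their part in these small differences was not tested. For Nfkbid the ratio was 1.17 within the lowest tercile of those genes and 0.640 within the highest.

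The listed target genes spread more widely over the CD9 division. In CD9-upper macrophages 2 of the 21 listed target genes passed the size rule upward and 7 passed it downward, with a median ratio of 0.857, against 6.63% upward and 3.09% downward of all genes tested. Lower were the chemokine genes Cxcl1 (56.8 against 216 CPM, 0.263-fold) and Cxcl2 (2112 against 4621 CPM, 0.457-fold), the cytokine gene Il1a (111 against 298 CPM, 0.372-fold) and Plau, which encodes the urokinase protease (178 against 399 CPM, 0.446-fold). Higher were Cd80 (44.0 against 17.8 CPM, 2.48-fold) and the immediate-early stress gene Ier3 (100.3 against 49.3 CPM, 2.04-fold). Of the 19 kinases and adaptors, Traf1 (1.57-fold, 1.48 to 1.67) and Irak3, a kinase-dead brake on Toll-like receptor signalling (1.67-fold, 1.33 to 2.10), were higher and 0 were lower. Of the 10 receptors Il1r1 was higher (1.56-fold, 1.12 to 2.18) and Tlr7, a receptor for single-stranded RNA, was lower (0.624-fold, 0.567 to 0.686). None of the 11 ubiquitin regulators and none of the 3 other IκB genes passed the size rule.

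**Figure D2:**
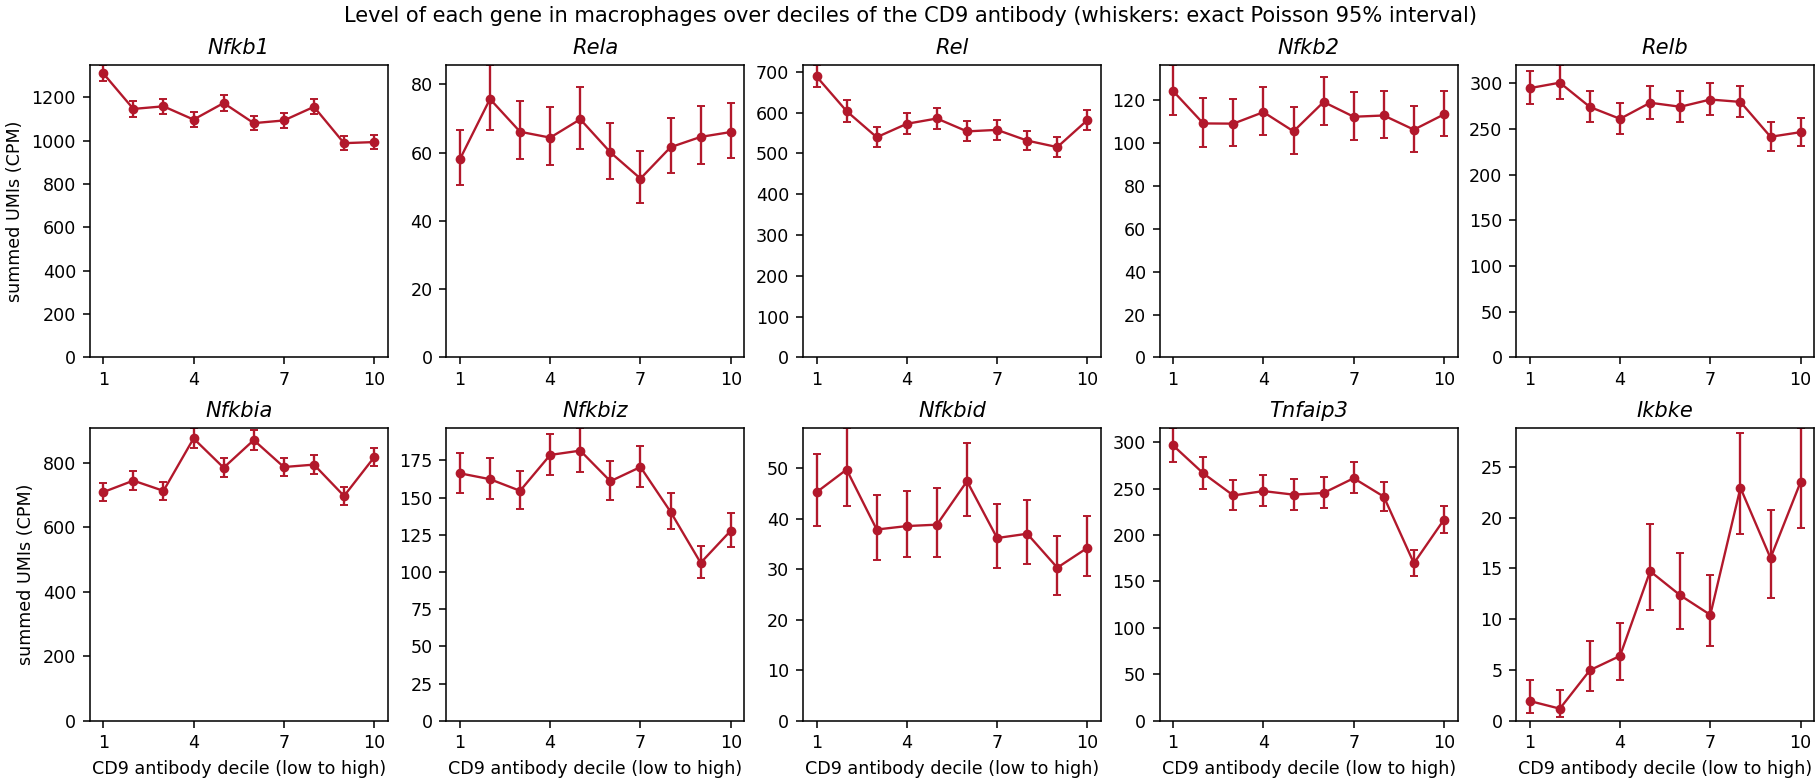
Level of each gene (CPM, vertical axis from 0, a scale of its own for each gene) in macrophages over deciles of the CD9 antibody, low to high, with exact Poisson 95% intervals. Ikbke runs between 1.19 CPM in decile 2 and 23.5 CPM in decile 10, while Nfkb1 is highest in decile 1 (1311 CPM) and lower in decile 10 (994 CPM).

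**Figure D3:**
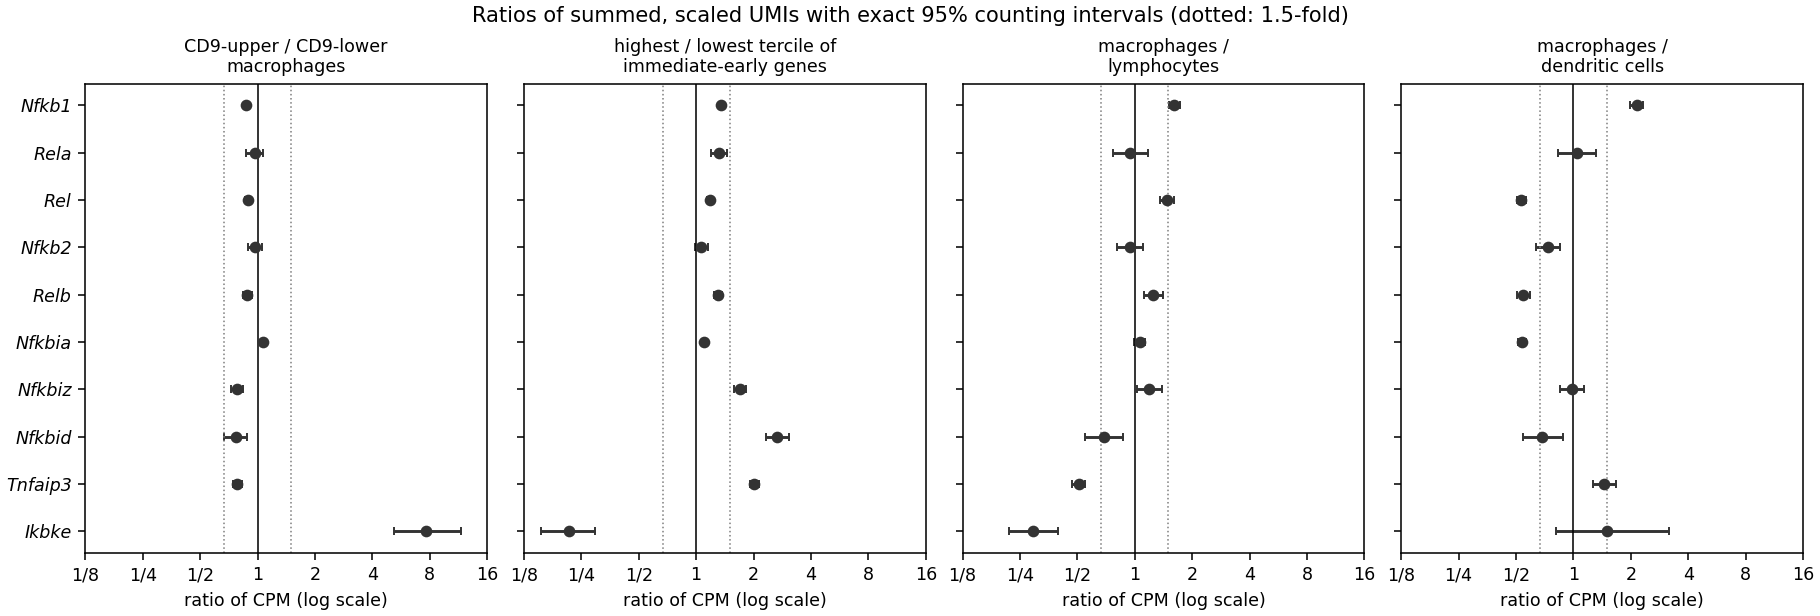
Ratio of the scaled, summed UMIs of each gene (log axis) in CD9-upper over CD9-lower macrophages, in macrophages of the highest over the lowest tercile of immediate-early genes, in macrophages over lymphocytes and in macrophages over dendritic cell-like cells, with exact 95% counting intervals and dotted lines at 1.5-fold. Ikbke lies at 7.64 in the CD9 panel and at 0.215 in the panel of immediate-early genes, where Nfkbid (2.67), Tnfaip3 (2.02) and Nfkbiz (1.70) lie past the upper line. For that panel the share of all genes past the lines was not counted.

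The level of the immediate-early and heat-shock genes divided the members differently from CD9. The share of all genes past 1.5-fold was not counted between these terciles, so the ratios below have no background beside them. Over the lowest, middle and highest tercile of their summed share, Nfkbid was at 22.8, 33.9 and 60.9 CPM, a 2.67-fold ratio of highest over lowest (2.32 to 3.08). Tnfaip3 was at 144, 289 and 291 CPM (2.02-fold, 1.91 to 2.14) and Nfkbiz at 115, 152 and 195 CPM (1.70-fold, 1.59 to 1.82). Tnfaip3 thus reached its upper level in the middle tercile, whereas Nfkbid and Nfkbiz were higher in each tercile than in the one before. Nfkbia was at 666, 942 and 732 CPM, with its peak in the middle. The subunits moved less, with ratios of 1.35 for Nfkb1, 1.32 for Rela, 1.30 for Relb, 1.18 for Rel and 1.06 for Nfkb2. Ikbke ran the other way, at 17.8, 13.6 and 3.83 CPM (0.215-fold, 0.153 to 0.297). Across terciles of the CD206 antibody Ikbke was at 7.71, 10.9 and 15.2 CPM, low to high (1.97-fold, 1.52 to 2.58), and the other 9 genes had ratios between 0.862 and 1.10. CD206 was not ranked within RNA depth. Its lowest and highest tercile also differed in median CD9 (149 against 1914.5 UMIs) and median RNA depth (18058 against 23244.5 UMIs). The part of CD9 and of depth in the Ikbke ratio was not tested.

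Clusters of macrophages showed where these levels sat. Ikbke was highest in cluster 4 (174 macrophages, led by S100a6, Pltp and Ahnak) at 38.1 CPM (32.4 to 44.5), where 31.6% of cells held a UMI. It was at 17.7 CPM (14.0 to 22.0) in cluster 5 (led by Clec4e, Tnfsf9 and Il10) and 14.0 CPM (11.5 to 16.8) in cluster 0 (led by the interferon-induced genes Ifit3, Cmpk2 and Ifit2). In cluster 1 (led by Slc40a1, Cd36 and Itgb8) it was at 1.53 CPM (0.701 to 2.91) and in cluster 2 (led by the heat-shock genes Hspa1a and Hspa1b) at 2.25 CPM (1.23 to 3.77). Cluster 4 held 16.2% of CD9-upper and 3.60% of CD9-lower macrophages, and cluster 1 held 8.40% of CD9-upper and 32.4% of CD9-lower macrophages, so cluster membership and CD9 moved together. Within clusters, with the upper 5 CD9 deciles set against the lower 5, the Ikbke ratio was 3.69 (1.94 to 7.73) in cluster 5 and 2.67 (1.74 to 4.19) in cluster 0. In cluster 2 it was 2.93 (0.845 to 12.8), from 10 and 4 UMIs. In cluster 3 it was 2.61 (0.942 to 8.94), from 19 and 5 UMIs, and both intervals include no difference. It was 1.23 (0.850 to 1.80) in cluster 4, at 40.3 against 32.8 CPM, an interval that includes no difference. There 1 cell, in CD9 decile 5, held 14 of the 40 UMIs of the lower deciles. The counting interval does not cover such unevenness, and the ratio without that cell was not computed. Over all macrophages the same 5-decile division gave 2.96. In cluster 1 it was 0.341 (0.00769 to 2.55), from 1 UMI in the upper and 8 UMIs in the lower deciles.

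Feedback genes had other peaks. Cluster 5 had the highest Nfkbia, at 1209 CPM (1177 to 1241), and the highest Tnfaip3, at 373 CPM (355 to 391), whereas cluster 3 (led by Arhgap45, Myo1f and 4933406I18Rik) had the lowest Tnfaip3, at 98.1 CPM (89.4 to 108). In cluster 4 Ikbke was high while Tnfaip3 (125 CPM, 115 to 137), Rel (436 CPM, 416 to 457) and Nfkbiz (111 CPM, 101 to 121) were below their levels over all macrophages. Nfkbid was highest in cluster 9 (led by Fosb and Jun) at 85.9 CPM (69.4 to 105), followed by cluster 2 at 64.1 CPM (57.9 to 70.7). Nfkb1 was between 893 and 1320 CPM in the 6 largest clusters, 596 CPM in cluster 9 and 207 CPM (163 to 259) in cluster 6. Cluster 6 was shallow, with a median of 6060 RNA UMIs and 3.04% mitochondrial UMIs against 1.37% over all macrophages, and the part of cell quality in its low Nfkb1 was not tested.

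The lowest subunit level relative to all macrophages was that of Nfkb2 in cluster 12, a small cluster of 28 macrophages led by Tesk2, Gm47507 and Tll2 with a median of 12873.5 RNA UMIs. It held 1 Nfkb2 UMI, where the rate of the other macrophages would give 41.8, a ratio of 0.0239 (0.000605 to 0.133). Map3k14, the kinase that acts on the Nfkb2 product, also had 1 UMI where 31.5 would be given (0.0317-fold, 0.000803 to 0.177), and Traf1 had 5 where 71.2 would be given. The other IκB genes Bcl3 and Nfkbie had 4 and 5 UMIs where 39.4 and 33.8 would be given. These genes were named after their values were seen. The shortfall was uneven: Relb had 54 UMIs against 100.7 (0.536-fold, 0.402 to 0.700), Nfkbia 108 against 289 (0.374-fold, 0.306 to 0.451), Nfkbiz 43 against 57.0 (0.755-fold, 0.546 to 1.02) and Tank 209 against 144 (1.45-fold, 1.26 to 1.67). Of 1989 nuclear-encoded genes at 30 or more UMIs by that rate, 8 had at most 1 UMI in the cluster. They were Cxcl3, Dusp2, H2-M2, Il12b, Map3k14, Nfkb2, Rab11fip1 and Spic. Whether the shortfall is technical or biological was not tested. Without clusters 6 and 12 the Ikbke ratio of CD9-upper over CD9-lower macrophages was 6.74.

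**Figure D4:**
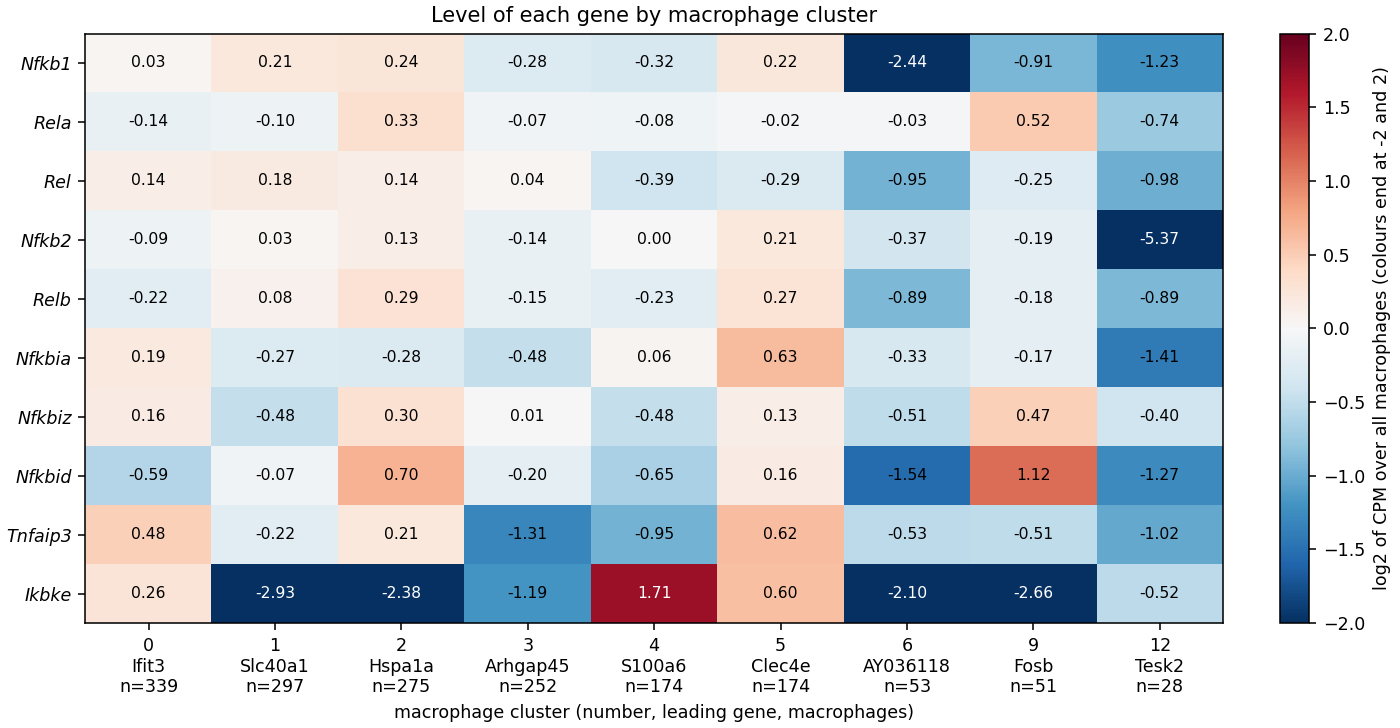
Level of each gene in the 9 macrophage clusters as log2 of its CPM over that of all macrophages, colours ending at -2 and 2, with the leading gene and the number of macrophages of each cluster under its column. Ikbke stands out in cluster 4 (1.71) and Nfkb2 in cluster 12 (-5.37, from 1 UMI).

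Cell by cell, the members were weakly related. Over the 1669 macrophages, each thinned to 5000 UMIs, the 45 pairs had a median Pearson r of 0.09 and a range of -0.05 to 0.33, and 5 pairs reached 0.2. These points share 1 library and their counts are sparse, so the values are descriptions only. The highest was that of Nfkbia with Tnfaip3 (0.33), the 2 classical feedback inhibitors, followed by Nfkb1 with Rel (0.31). Rela had an r of at most 0.09 with any member, and Ikbke one of at most 0.04. With the summed UMIs of the 21 target genes, r was 0.41 for Tnfaip3, 0.36 for Nfkbia, 0.34 for Nfkbiz, 0.34 for Nfkb1, 0.27 for Rel, 0.02 for Rela and -0.04 for Ikbke.

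Among 4991 genes seen in at least 10% of thinned macrophages, the gene most like Nfkbiz was Tnf (r of 0.36), followed by Ccl3 (0.26) and Il1a (0.25). Tnf also led for Tnfaip3 (0.34), before Ccl4 (0.33). Nfkbia was most like Tnfaip2 (0.35), a TNF-induced gene, and then Tnf (0.33). For Nfkb1 the first were Nlrp3 (0.32), an inflammasome sensor, Rapgef2 (0.32) and Malt1 (0.32), a protease of NF-κB signalling. Rel was most like Nfkb1 (0.31), Cd83 (0.30) and Cd86 (0.26), and Nfkbid was most like Egr1 (0.22), Cxcl2 (0.20) and Nr4a1 (0.19). The first genes for Relb (0.16), Nfkb2 (0.14) and Rela (0.09) had values too low to single out. Ikbke was seen in too few thinned cells for such a ranking.

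**Figure D5:**
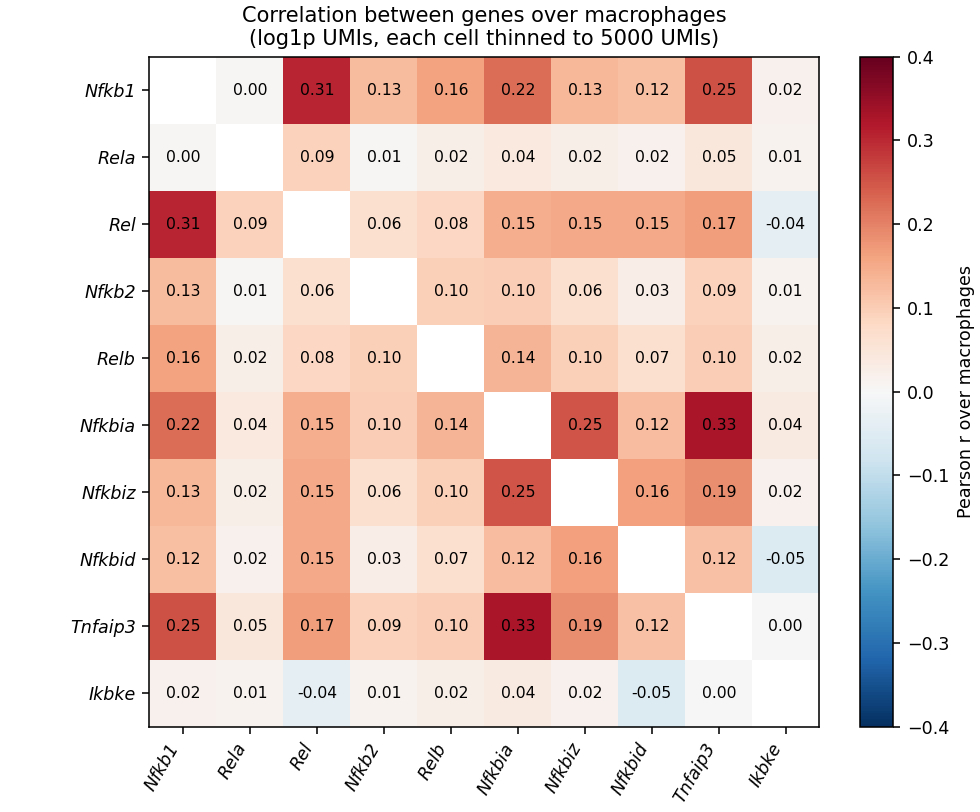
Pearson r between each pair of the 10 genes over 1669 macrophages, from log-scaled UMIs with each cell thinned to 5000 UMIs. The highest cell of the grid is Nfkbia with Tnfaip3 (0.33), and the rows of Rela and Ikbke stay at or below 0.09 and 0.04.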

How the data were processed

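The matrix holds UMI counts per gene or antibody tag and cell barcode, which the authors made against mm10, per the submitters' processing notes. The pipeline was Cell Ranger version 8.0.1 per the file headers. How the authors chose barcodes as cells is not stated in the labels or headers read. It had 2237 barcodes, 44140516 UMIs in all and a median of 19352 per barcode. Cells needed 200 or more genes and no more than 10% mitochondrial UMIs, which left 2215. Scrublet's own threshold marked 0.316%, below the 1.79% given by an assumed rate of 0.8% per 1000 barcodes. The 1.79% of cells with the highest doublet scores (40) were therefore removed. Which share is nearer the truth was not tested. Cells were clustered with scanpy 1.11.5 (2000 variable genes, 30 components, 15 neighbours, Leiden resolution 1) without 99 genes: the members, the listed pathway genes, Cd9, Mrc1 and endocrine and acinar genes. Clusters outside macrophages were clustered again and named from marker lists, and names remain approximate. Cells of 3 unnamed clusters entered no class, and neither did 183 cells of macrophage-like clusters that did not meet the macrophage rule. Deposited counts were summed over cells and scaled to CPM. Ratios carry exact conditional binomial intervals, levels exact Poisson ones and shares Clopper-Pearson ones, all at 95% and for counting error only. Of listed genes, up to 4 per list and direction past 1.5-fold were eligible to be named, by the interval bound nearest to 1. The ratio step was run on simulated Poisson sums with known folds. These hold no spread between cells or mice, so the run cannot speak to such spread. Levels are not set against gene length and are not compared between genes. The members, gene lists and rules were chosen with earlier results of these data known. Alternatives covered thresholds, scaling, doublets, clustering and the CD9 ranking.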

Additional observations from a re-analysis of the deposited data

How the results depend on the processing

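Of 530 ratios of single genes recomputed under other settings, 401 moved by less than the counting interval, 128 moved by more and 1 that was past 1.5-fold changed sides: Ikbke in CD9-upper over CD9-lower macrophages was at -1.55 on the log2 scale within cluster 1 (9 UMIs). Over the other settings its CD9 ratio lay above 1, and the highest was 13.6. A further 40, all within 1.5-fold as reported, fell on the other side of 1, among them Nfkbid over dendritic cell-like cells (1.32 at resolution 1.5), Tnfaip3 over dendritic cell-like cells (0.861 in the macrophages lowest in immediate-early genes), Nfkbid by CD9 (1.48 within cluster 3) and Nfkbia by CD9 (0.859 within cluster 1). Counts of members past 1.5-fold changed by over 1.5 times as follows. In the CD9 comparison, 0 rather than 1 were higher within the lowest and middle CD206 terciles, within the highest tercile of immediate-early genes and with at least 500 UMIs required, because Ikbke then fell under the UMI minimum, and 1 rather than 0 was lower within the highest tercile of CD206 (Nfkbiz) and of immediate-early genes (Nfkbid). Over lymphocytes, 0 rather than 1 were higher as a mean over cells, at a 2-fold threshold and in the macrophages lowest in immediate-early genes; scaling to the median gene gave 5 higher and 1 lower; and a 2-fold threshold or at least 500 UMIs gave 1 lower. Over dendritic cell-like cells, 1 rather than 2 were higher as a mean over cells, without the cell richest in the gene, with at least 500 UMIs or at 2-fold, and 0 rather than 3 were lower at 2-fold. Smaller changes were 3 rather than 2 lower over lymphocytes, and 4 rather than 3 lower over dendritic cell-like cells, with a higher C1q threshold or in the macrophages lowest in immediate-early genes; 4 lower over dendritic cell-like cells as a mean over cells; and 3 rather than 2 higher there with the median gene scaled to 1. With doublets kept no cluster was named dendritic cell-like, so that comparison gave no value, and at resolution 1.5 the class shrank to 19 cells, with ratios of 1.32 for Nfkbid, 2.07 for Ikbke and 1.17 for Tnfaip3. No paired analysis was possible because there is 1 sample of cells. Depth limits Ikbke, Nfkbid and Rela most, and classes of under 50 cells.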
